A study of Mus musculus with 12 samples.

Results

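Histone acetyltransferases were followed in mouse frontal cortex through 9 genes, Crebbp, Ep300, Kat2a, Kat2b, Kat5, Kat6a, Kat6b, Kat7 and Kat8. They were chosen by symbol as the main nuclear enzymes that acetylate histones, and each matched 1 Ensembl identifier among 47069 genes in the deposited table. All 9 passed the filter on low counts that left 17286 genes for testing. These enzymes move an acetyl group from acetyl-CoA to lysines of histone tails, which loosens the contact of histones with DNA and creates docking sites for bromodomain proteins. They oppose histone deacetylases such as Hdac2, the gene targeted in this study. Acetylation by the p300/CBP family at enhancers and promoters of neurons is known for its part in activity-dependent transcription and memory.

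RNA was sequenced from bilateral frontal cortex of male C57BL/6 mice, in 4 groups of 3 libraries. The first group was labelled HDAC2(loxP,loxP), CamKIIa-Cre(+,-) and received clozapine at 10 mg/kg, and the second had the same genotype and received vehicle. The third was wild type with the same clozapine dose, and the fourth was wild type with vehicle. Clozapine is an atypical antipsychotic that blocks receptors of serotonin and dopamine among others, and its administration is labelled chronic. The labels give no allele or agent shared by all 4 groups. The age of the mice, the length of treatment and whether the wild-type mice carried Cre are not given in the sources used here. The CamKIIa promoter drives Cre in excitatory neurons of the forebrain, so interneurons, glia and vessels in the same tissue are not its targets. Libraries are named by group and number: knockout clozapine 3, 4 and 5, knockout vehicle 2, 4 and 5, wild-type clozapine 2, 3 and 5, and wild-type vehicle 1, 3 and 4.

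Total counts per library lay between 23408372 and 28069638, and the 9 genes held between 374.5 and 2392 counts in a library. Replicates varied beyond counting error, as the 12 pairs within groups had chi-square values of 4.26 to 10.6 per gene. Expression is given as CPM, counts scaled to library size. Hdac2, the targeted gene, stood at 70.5 to 76.6 CPM in the labelled knockout, against 63.4 to 75.7 CPM in wild type (log2 difference 0.03 averaged over treatments, edgeR adjusted p = 0.651). It was not lower under the knockout label, but counts over a whole gene cannot show whether some of its exons were lost, so every genotype direction rests on the labels. The 7 markers of excitatory neurons were present in all groups, with a summed level of 9398 to 9779 CPM in knockout clozapine, 8281 to 9030 CPM in knockout vehicle, 8316 to 8581 CPM in wild-type clozapine and 8787 to 9725 CPM in wild-type vehicle. Knockout vehicle 5 was the deepest library and also had the lowest value of the 12 for 5 of the 9 genes (Crebbp, Ep300, Kat2a, Kat6a and Kat6b). The same count was not made over all genes, so it describes the library and is not a trait of these enzymes. The changes of Crebbp, Ep300 and Kat6a that involve knockout vehicle are given with and without knockout vehicle 5. The labels do not say more of the animals than group and number, so p-values measure only the spread between libraries.

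The 9 genes fall into 3 families by the kind of catalytic domain. Crebbp (ENSMUSG00000022521.10, chr16:4081328-4213997, minus strand) and Ep300 (ENSMUSG00000055024.12, chr15:81585351-81652077, plus strand) encode CBP and p300, large coactivators that acetylate histones H3 and H4 and bind CREB and many other transcription factors. Kat2a (ENSMUSG00000020918.14, chr11:100704746-100712465, minus strand) and Kat2b (ENSMUSG00000000708.14, chr17:53566861-53672720, plus strand) encode GCN5 and PCAF, the alternative catalytic subunits of the SAGA and ATAC complexes, and form the GNAT family here. The MYST family is made up of Kat5, Kat6a, Kat6b, Kat7 and Kat8. Kat5 (ENSMUSG00000024926.9, chr19:5603014-5610237, minus strand) encodes TIP60 of the NuA4 complex, and Kat8 (ENSMUSG00000030801.10, chr7:127912516-127925837, plus strand) encodes MOF, which acetylates histone H4. Kat6a (ENSMUSG00000031540.13, chr8:22859535-22943259, plus strand) and Kat6b (ENSMUSG00000021767.16, chr14:21481434-21672478, plus strand) encode MOZ and MORF, and Kat7 (ENSMUSG00000038909.16, chr11:95274259-95310246, minus strand) encodes HBO1. All coordinates are of GRCm38 and come from the GENCODE annotation of that build.

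A read that lies wholly in sequence shared by 2 genes cannot be assigned to 1 of them, so the longest identical run of coding bases was sought for each of the 36 pairs. The longest run of all pairs joined Kat6a and Kat6b and had 35 bases (chr8:22911820-22911854, plus strand, and chr14:21625053-21625087, plus strand). Crebbp and Ep300 shared 29 bases (chr16:4108064-4108092, minus strand, and chr15:81631797-81631825, plus strand), and Kat2a and Kat2b shared 19 bases (chr11:100711442-100711460, minus strand, and chr17:53624370-53624388, plus strand). Runs of this size were not limited to paralogs, as Crebbp and Kat6a shared 28 bases and Ep300 and Kat6a 20. The 3 runs of paralogs, from GENCODE transcripts of GRCm38, are written 5′ to 3′ in the sense of the genes. Every base is common to both genes, and no base is in capitals.
Kat6a and Kat6b: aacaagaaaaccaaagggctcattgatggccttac
Crebbp and Ep300: tttgaacaagaaattgaccctgtcatgca
Kat2a and Kat2b: tggagaatgtgtcagagga
The read length is not given in the sources used here. Identical runs of this size are a small part of the coding sequences, which end in proteins of 2441 residues for Crebbp, 2412 for Ep300, 2003 for Kat6a and 1872 for Kat6b in the longest annotated form. Deposited counts that are not whole were found for Crebbp in 8 of 12 libraries and for Kat2b in 4 of 12, and for the other 7 genes in none, and their origin was not tested. On the opposite strand, Rnaseh2c shares 426 exonic bases with Kat5 (12.1% of its exonic length) and had 5856 counts over all libraries against 14125 for Kat5. Prss8 shares 122 exonic bases with Kat8 (4.22%) and had 14 counts against 5308. Whether counting used strand is not given in the sources used here, so part of the reads counted for Kat5 cannot be told apart from those of Rnaseh2c.

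Per length, Kat2a was the most abundant of the 9 transcripts and Kat6b the least. Levels between genes were compared as CPM per kilobase of merged exons, as mean and SD over all 12 libraries. Kat2a stood at 23.9 ± 1.16 CPM per kilobase, above Kat5 at 13.6 ± 0.426 and Kat7 at 13.3 ± 0.724. Kat6a and Kat8 followed at 6.30 ± 0.475 and 6.22 ± 0.462 CPM per kilobase. Ep300 had 4.70 ± 0.475, Crebbp 4.07 ± 0.346, Kat2b 3.76 ± 0.338 and Kat6b 3.38 ± 0.174 CPM per kilobase. The GNAT paralogs were therefore at the upper and the lower part of the order, and p300 was above CBP in 12 of 12 libraries, although the ranges of their levels overlapped. Neighbours in the order overlapped for Kat5 and Kat7 (Kat5 higher in 8 of 12 libraries), Kat6a and Kat8 (6 of 12), Crebbp and Kat2b (10 of 12) and Kat2b and Kat6b (11 of 12). No overlap was seen between Kat2a and Kat5, between Kat7 and Kat6a, or between Kat8 and Ep300. Among all genes tested the levels per kilobase ranked from the 87.1th percentile for Kat2a to the 46.5th for Kat6b.

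**Figure D1:**
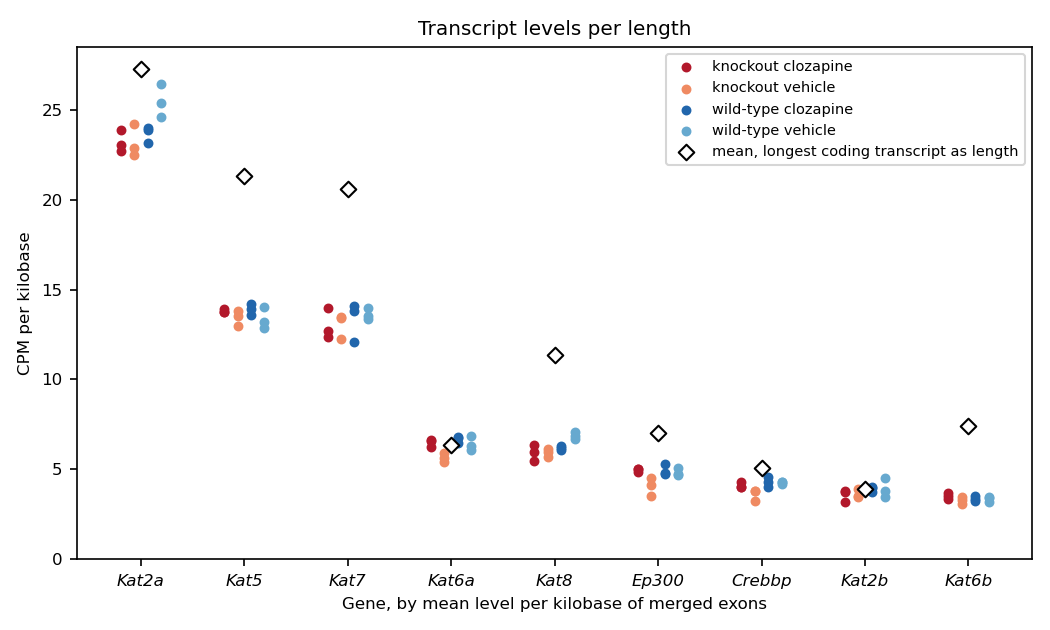
Transcript levels of the 9 genes in CPM per kilobase of merged exons (points, 1 per library, coloured by group) and the mean level per kilobase of the longest coding transcript (open diamonds). Kat2a at 23.9 CPM per kilobase stands above all others, and Kat6b and Kat8 move up when the longest coding transcript is taken as length.

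The order of the 6 lower genes depended on how length was defined. With the longest coding transcript in place of merged exons, an alternative chosen after seeing the data, Kat8 stood at 11.4, Kat6b at 7.39, Ep300 at 7.01, Kat6a at 6.34, Crebbp at 5.09 and Kat2b at 3.93 CPM per kilobase. Kat2a (27.3), Kat5 (21.3) and Kat7 (20.6) kept the first 3 places. Merged exons of Kat6b spanned 16.8 kb and its longest coding transcript 7.70 kb.

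Summed over the family, p300 and CBP transcripts were lowest in knockout vehicle, at 7.66 ± 0.804 CPM per kilobase (SD, n = 3). The other groups lay at 9.06 ± 0.209 in knockout clozapine, 9.23 ± 0.544 in wild-type clozapine and 9.10 ± 0.243 in wild-type vehicle. The GNAT sum was 26.8 ± 0.303 in knockout clozapine, 26.8 ± 0.803 in knockout vehicle, 27.6 ± 0.435 in wild-type clozapine and 29.4 ± 0.731 in wild-type vehicle. The MYST sum was 42.8 ± 1.16 CPM per kilobase in knockout clozapine, 41.4 ± 1.53 in knockout vehicle, 43.5 ± 1.12 in wild-type clozapine and 43.6 ± 1.22 in wild-type vehicle. The p300/CBP family thus had its low group in knockout vehicle, and the GNAT family its high group in wild-type vehicle. These sums are descriptions and were not tested.

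The question of how the labelled deletion of a deacetylase bears on the opposing enzymes was put first under vehicle. Crebbp and Ep300 transcripts fell in the labelled knockout, by 15.7% and 16.2%, while Kat6a, Kat8 and Kat2a were lower by smaller amounts that did not pass the test, and Kat2b, Kat5, Kat6b and Kat7 overlapped between the groups. By edgeR's quasi-likelihood test with Benjamini-Hochberg adjustment over 17286 genes and a threshold of 0.05, 2 of 9 genes were called lower and 0 higher. Among all genes tested 5.15% were called lower, and 9.16% in either direction. An unadjusted p under 0.05 with a lower value was found for 5 of 9 genes (12.6% of all genes). The same 5 genes had lower values in every knockout vehicle library than in any wild-type vehicle library (14.2% of all genes). Crebbp, Ep300 and Kat6a also varied together within groups. Pearson's r of log2 CPM after removal of group means was 0.83 for Crebbp and Ep300, 0.73 for Ep300 and Kat6a and 0.58 for Crebbp and Kat6a. Counts of genes are therefore not counts of separate results, here and in the comparisons below. The median log2 change of the 9 genes was -0.14, with 8 of 9 below 0, beside a median of 0.00 for all genes.

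Crebbp stood at 51.0, 51.5 and 43.8 CPM in knockout vehicle, against 58.4, 58.1 and 56.8 CPM in wild-type vehicle. All 3 knockout libraries were below all 3 wild-type libraries, and knockout vehicle 5 was the lowest. The log2 change was -0.25 (SE 0.065, 95% interval -0.38 to -0.11, edgeR adjusted p = 0.0269). Ep300 stood at 59.0, 64.4 and 50.3 CPM in knockout vehicle, against 67.1, 72.6 and 67.4 CPM in wild-type vehicle. Its groups did not overlap either, and the same library was the lowest. The log2 change was -0.26 (SE 0.074, 95% interval -0.41 to -0.10, edgeR adjusted p = 0.0414).

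Both calls depended on single libraries and on the model. Without knockout vehicle 5 the change was -0.17 for Crebbp (edgeR adjusted p = 0.116) and -0.16 for Ep300 (edgeR adjusted p = 0.165). The Crebbp call was also lost without wild-type vehicle 1 (edgeR adjusted p = 0.0735) or wild-type vehicle 3 (0.0899), and held in 9 of 12 fits that left out a library. The Ep300 call held in 4 of 12. It was lost without knockout clozapine 3, 4 or 5, knockout vehicle 2 or 5, or wild-type vehicle 1, 3 or 4, with edgeR adjusted p between 0.0540 and 0.165. With only the 2 groups compared in the fit, both calls were lost at the same sizes, -0.25 for Crebbp (edgeR adjusted p = 0.0537) and -0.26 for Ep300 (edgeR adjusted p = 0.0925). With 1 surrogate variable the Ep300 call was lost (-0.27, edgeR adjusted p = 0.0554) and the Crebbp call was not (-0.26, edgeR adjusted p = 0.0326).

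Kat6a, the catalytic subunit MOZ, stood at 51.8, 54.1 and 49.4 CPM in knockout vehicle, against 55.8, 63.1 and 57.6 CPM in wild-type vehicle (log2 change -0.19, SE 0.058, edgeR adjusted p = 0.0532). DESeq2 called this gene (adjusted p = 0.0451), and edgeR called it in 3 of 12 fits without 1 library. Without knockout vehicle 5 its change was -0.15 (edgeR adjusted p = 0.181). Kat8 stood at 16.5, 17.8 and 17.3 CPM in knockout vehicle, against 19.8, 19.3 and 20.4 CPM in wild-type vehicle (log2 change -0.21, SE 0.070, edgeR adjusted p = 0.0732). Knockout vehicle 5 was not low for Kat8, and without it the change was -0.21 (edgeR adjusted p = 0.145). Kat2a stood at 79.6, 84.2 and 78.4 CPM in knockout vehicle, against 85.7, 92.0 and 88.3 CPM in wild-type vehicle (log2 change -0.14, SE 0.048, edgeR adjusted p = 0.0930). The groups did not overlap for any of these 3 genes, but the differences did not pass the threshold. The 4 remaining genes had log2 changes of -0.11 (Kat2b, 95% interval -0.32 to 0.09), -0.06 (Kat7, -0.20 to 0.07), -0.04 (Kat6b, -0.17 to 0.09) and 0.01 (Kat5, -0.10 to 0.12). Kat6b moved to the other side of 0 without knockout vehicle 5, at 0.01. Kat5 was bounded between a fall of 6.80% and a rise of 8.52%.

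**Figure D2:**
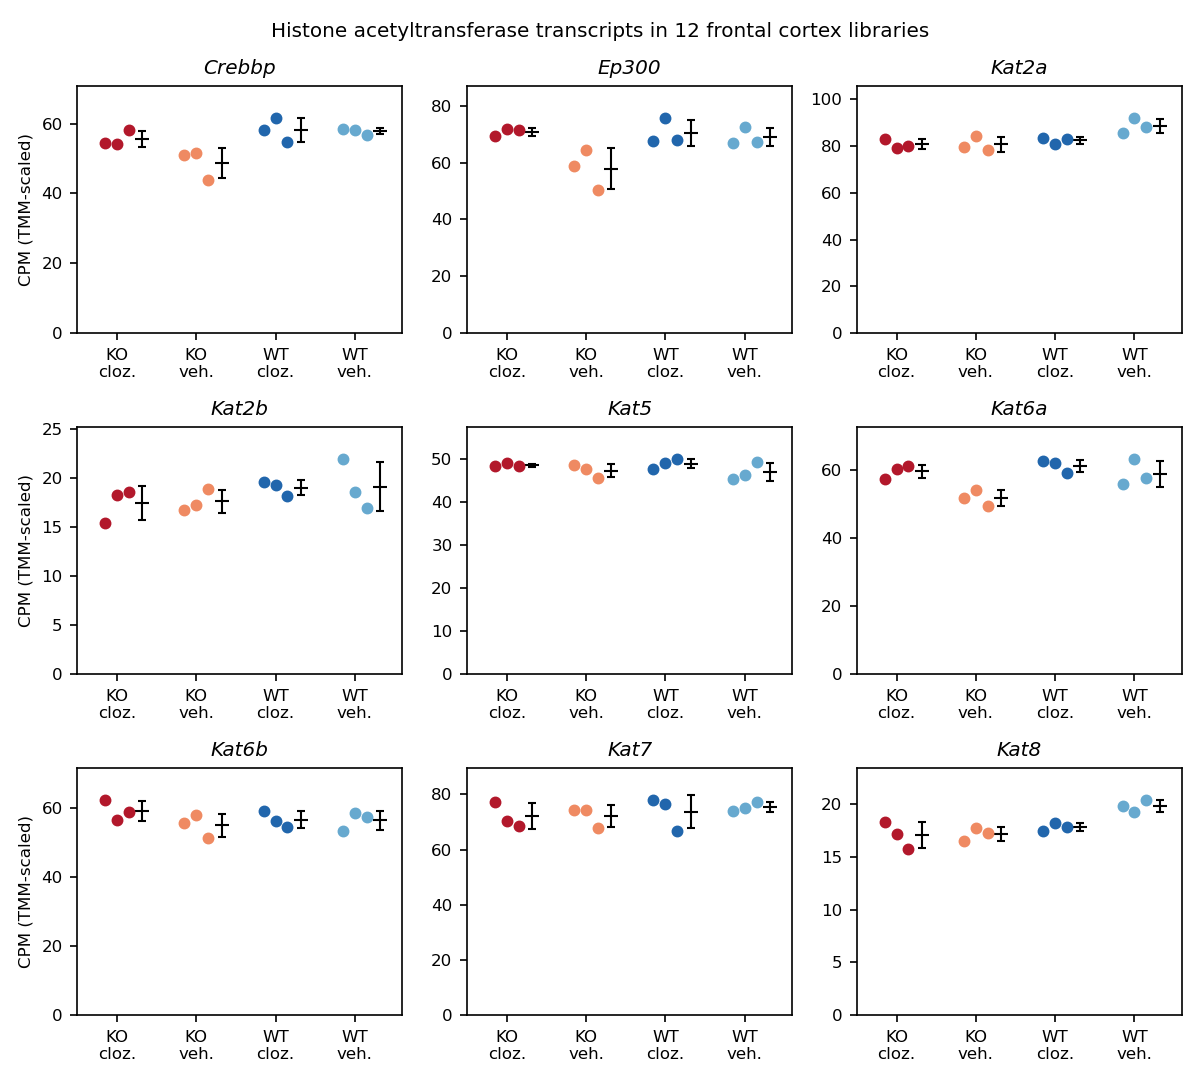
CPM over TMM-scaled library sizes of the 9 genes in the 12 libraries, 1 panel a gene (points, libraries; bars, group means; groups from left to right knockout clozapine, knockout vehicle, wild-type clozapine, wild-type vehicle). In Crebbp, Ep300 and Kat6a the knockout vehicle libraries sit below the others, with knockout vehicle 5 lowest at 43.8, 50.3 and 49.4 CPM.

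The 2 genes called lower were long, and the median change of the longest genes was below 0 in knockout vehicle against wild-type vehicle. Over 17216 genes with an annotated length, log2 changes for knockout vehicle against wild-type vehicle had a Spearman rho of -0.209 with exonic length, across genes that are not independent replicates. The longest decile of genes (1722 genes, median length 12 kb) had a median log2 change of -0.07, an interquartile range from -0.19 to 0.03, and 14.7% called lower. The shortest decile had a median of 0.07. Merged exons spanned 13.5 kb in Crebbp, 14.3 kb in Ep300 and 9.18 kb in Kat6a, against 2.89 kb in Kat8 and 3.48 kb in Kat2a. Kat6b, at 16.8 kb of merged exons the longest of the 9, changed by -0.04. Its longest coding transcript had 7.70 kb, less than that of Crebbp (10.8 kb), Ep300 (9.57 kb) and Kat6a (9.11 kb). The place of Kat6b in the length order thus depended on how length was defined. Within libraries, the rho of centred log2 CPM with length was lowest in knockout vehicle 5 (-0.281), followed by knockout vehicle 2 (-0.144). It was highest in wild-type clozapine 3 (0.189) and wild-type vehicle 3 (0.154). Knockout vehicle 4 had -0.043, less negative than knockout clozapine 3 (-0.071) and wild-type clozapine 5 (-0.063). The trend thus differed between libraries of knockout vehicle.

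A smooth correction of each library for exonic length and GC content changed which genes were called under vehicle. The count stayed at 2 of 9, but these were Kat2a (log2 change -0.17, edgeR adjusted p = 0.0236) and Kat8 (-0.25, edgeR adjusted p = 0.0369). Crebbp changed by -0.16 (edgeR adjusted p = 0.0843), Ep300 by -0.16 (edgeR adjusted p = 0.0843) and Kat6a by -0.14 (edgeR adjusted p = 0.0828) after the correction. Kat6b moved to the other side of 0, at 0.07 (edgeR adjusted p = 0.426), and so did Kat5, at -0.02. The sign of Crebbp, Ep300, Kat6a, Kat2a and Kat8 was the same with and without the correction, while the side of the threshold was not for Crebbp, Ep300, Kat2a and Kat8.

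**Figure D3:**
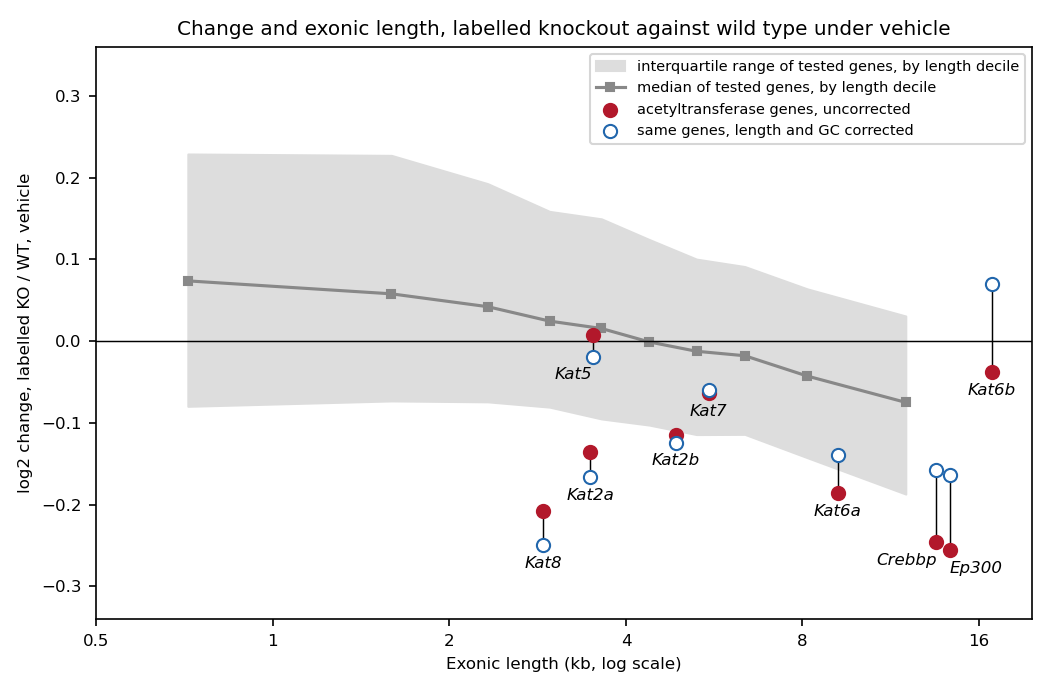
Log2 change of knockout vehicle against wild-type vehicle (vertical axis) by exonic length in kilobases (horizontal axis, log scale). Grey squares and band are the median and interquartile range of all tested genes by length decile, filled points the 9 genes uncorrected and open points the same genes after correction for length and GC content. The grey medians go from 0.07 in the shortest decile to -0.07 in the longest. Before correction Crebbp (-0.25), Ep300 (-0.26), Kat6a (-0.19), Kat8 (-0.21) and Kat2a (-0.14) lie below the lower quartile of their length decile. Kat2b (-0.11) lies narrowly below that of its own.

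Some markers of cell types were called between the same groups, where 9.16% of all genes tested were called in either direction and 5.15% lower. Under vehicle, 2 of 6 upper-layer neuron markers were called lower in the labelled knockout (summed level 1053 to 1136 CPM in knockout vehicle and 1118 to 1318 CPM in wild-type vehicle) and 2 of 7 microglial markers were called higher (353 to 371 CPM in knockout vehicle and 306 to 346 CPM in wild-type vehicle). Of 5 markers of oligodendrocyte precursors 2 were called higher (205 to 213 CPM in knockout vehicle and 182 to 202 CPM in wild-type vehicle). Of 6 endothelial markers 1 was called higher and 2 lower, of 7 deep-layer markers 1 higher, and of 5 striatal markers 1 lower. Of 7 excitatory neuron markers 0 were called by edgeR, DESeq2 or limma-voom (2 at an edgeR unadjusted p under 0.05), and likewise 0 of 8 interneuron markers (2), 0 of 7 astrocyte markers (0) and 0 of 7 oligodendrocyte markers (0). The lists of mural cells, meningeal fibroblasts, choroid plexus and red blood cells also had 0 called by these tools, with at most 1 marker of a list at an edgeR unadjusted p under 0.05. By edgeR 12.6% of all genes had an unadjusted p under 0.05 with a lower value. The share in either direction is not given here, so the counts of markers at an unadjusted p have no share beside them. No marker was at 0 in all libraries. The part of these shifts in the acetyltransferase values was not tested, and in bulk tissue fewer cells of a type and less RNA per cell cannot be told apart.

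Under clozapine the labelled genotype made no difference that was called in any of the 9 genes. By edgeR 0 of 9 passed, where 2% of all genes did, and 0 of 9 had an unadjusted p under 0.05 (15.9% of all genes). DESeq2 and limma-voom also called 0. In 0 of 9 genes did the knockout clozapine libraries stand clear of the wild-type clozapine libraries (22.5% of all genes in either direction). Log2 changes ran from -0.13 for Kat2b to 0.06 for Kat6b, with a median of -0.03. Crebbp stood at 54.5, 54.0 and 58.1 CPM in knockout clozapine, against 58.2, 61.5 and 54.6 CPM in wild-type clozapine (log2 change -0.07, 95% interval -0.20 to 0.07). Ep300 stood at 69.3, 71.8 and 71.4 CPM in knockout clozapine, against 67.7, 75.6 and 68.1 CPM in wild-type clozapine (log2 change 0.01, 95% interval -0.15 to 0.16). The libraries of both groups were interleaved for both genes. In percent, the interval for Ep300 reached down to -9.87% under clozapine and up to -6.57% under vehicle, so the 2 intervals overlapped, and the difference between them is tested as the interaction. In the same comparison 1 of 6 upper-layer and 1 of 7 excitatory neuron markers were called higher in the labelled knockout, and their part was not tested. Log2 changes of all genes for genotype under clozapine had a Spearman rho of 0.231 with GC content and -0.036 with exonic length.

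Clozapine in the labelled knockout was accompanied by higher Ep300, Kat6a and Crebbp values that did not pass edgeR's adjusted threshold. By edgeR 0 of 9 genes were called, where 0.0231% of all genes were. An unadjusted p under 0.05 with a higher value was found for 3 of 9 (7.01% of all genes), and the same 3 had values in all knockout clozapine libraries above those in all knockout vehicle libraries (9.72% of all genes). These 3 genes varied together within groups, so they are not 3 separate results. Ep300 stood at 69.3, 71.8 and 71.4 CPM in knockout clozapine, against 59.0, 64.4 and 50.3 CPM in knockout vehicle. That is a log2 change of 0.29 (SE 0.074, 95% interval 0.13 to 0.45, edgeR adjusted p = 0.114). DESeq2 called Ep300 (adjusted p = 0.0260), as did edgeR with no filter on low counts (adjusted p = 0.0117), while limma-voom called 0 of 9. Kat6a stood at 57.3, 60.2 and 61.0 CPM in knockout clozapine, against 51.8, 54.1 and 49.4 CPM in knockout vehicle (log2 change 0.20, SE 0.058, edgeR adjusted p = 0.152). Crebbp changed by 0.19 (SE 0.065, edgeR adjusted p = 0.231). In the same comparison upper-layer markers were higher and deep-layer markers lower. The 6 upper-layer markers had a median log2 change of 0.27 with 6 of 6 above 0 (summed level 1212 to 1274 CPM in knockout clozapine and 1053 to 1136 CPM in knockout vehicle). The 7 deep-layer markers had a median of -0.30 with 0 of 7 above 0 (174 to 203 CPM in knockout clozapine and 214 to 261 CPM in knockout vehicle). By edgeR and limma-voom 0 markers of either layer list were called, and DESeq2 called 2 upper-layer and 1 deep-layer marker. The share of all genes called by DESeq2 is not given here. An edgeR unadjusted p under 0.05 was found for 2 upper-layer markers and 1 deep-layer marker (12.2% of all genes in either direction). Several other lists also lay mostly on 1 side of 0, with 0 markers called by edgeR. Above 0 were 6 of 6 meningeal fibroblast markers (median 0.29) and 5 of 5 red blood cell markers (0.22). For microglia it was 1 of 7 (-0.07) and for oligodendrocytes 0 of 7 (-0.10). Their part in the acetyltransferase values was not tested.

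Knockout vehicle is the group set against others in both comparisons, so its 3 low libraries enter the change with genotype and the change with clozapine alike. Without knockout vehicle 5 the log2 change with clozapine in the labelled knockout was 0.20 for Ep300 (edgeR adjusted p = 0.384), 0.17 for Kat6a (edgeR adjusted p = 0.461) and 0.11 for Crebbp (edgeR adjusted p = 0.641). After correction for length and GC content it was 0.19 for Ep300, 0.16 for Kat6a and 0.09 for Crebbp, and log2 changes of all genes in this comparison had a Spearman rho of 0.182 with exonic length. Kat2a, Kat2b, Kat5, Kat6b, Kat7 and Kat8 had log2 changes between -0.02 and 0.11 with clozapine in the labelled knockout. For Kat7, at 77.5, 70.4 and 68.4 CPM in knockout clozapine and 74.5, 74.5 and 67.7 CPM in knockout vehicle, the 95% interval was -0.14 to 0.14.

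Clozapine in wild type was accompanied by lower Kat2a and Kat8 values that did not pass the adjusted threshold, and the libraries of the p300/CBP pair overlapped between treatments. By edgeR 0 of 9 genes were called, where 0.816% of all genes were, and DESeq2 and limma-voom called 0 as well. An unadjusted p under 0.05 with a lower value was found for 2 of 9 (6.27% of all genes), and the same 2 genes, Kat2a and Kat8, had no overlap between groups (8.22% of all genes). Kat2a stood at 83.6, 80.7 and 83.1 CPM in wild-type clozapine, against 85.7, 92.0 and 88.3 CPM in wild-type vehicle (log2 change -0.10, SE 0.049, edgeR adjusted p = 0.421). Kat8 stood at 17.5, 18.2 and 17.9 CPM in wild-type clozapine, against 19.8, 19.3 and 20.4 CPM in wild-type vehicle (log2 change -0.15, SE 0.070, edgeR adjusted p = 0.417). An unadjusted p under 0.05 was found for 2 of 9 genes with RLE size factors, 1 with limma-voom and 0 with DESeq2 or 1 surrogate variable. It was also found for 0 with the correction for length and GC content and with only the 2 groups compared. Over 11 other settings of the test the change ran from -0.12 to -0.06 for Kat2a and from -0.16 to -0.05 for Kat8. For both genes wild-type vehicle was the group with the highest mean of the 4. Log2 changes of all genes in this comparison had a Spearman rho of -0.167 with GC content and -0.047 with exonic length. GC content was 57.4% for Kat2a, the highest of the 9 genes, and 52.1% for Kat8. The part of GC content in these values was not tested. Crebbp changed by 0.01 (95% interval -0.13 to 0.15), Ep300 by 0.03 (-0.13 to 0.19) and Kat6a by 0.06 (-0.07 to 0.18). Kat5, at 47.7, 48.9 and 49.9 CPM in wild-type clozapine and 45.2, 46.2 and 49.3 CPM in wild-type vehicle, changed by 0.06 (-0.05 to 0.17). In this comparison 1 of 6 upper-layer markers was called lower, and its part was not tested.

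**Figure D4:**
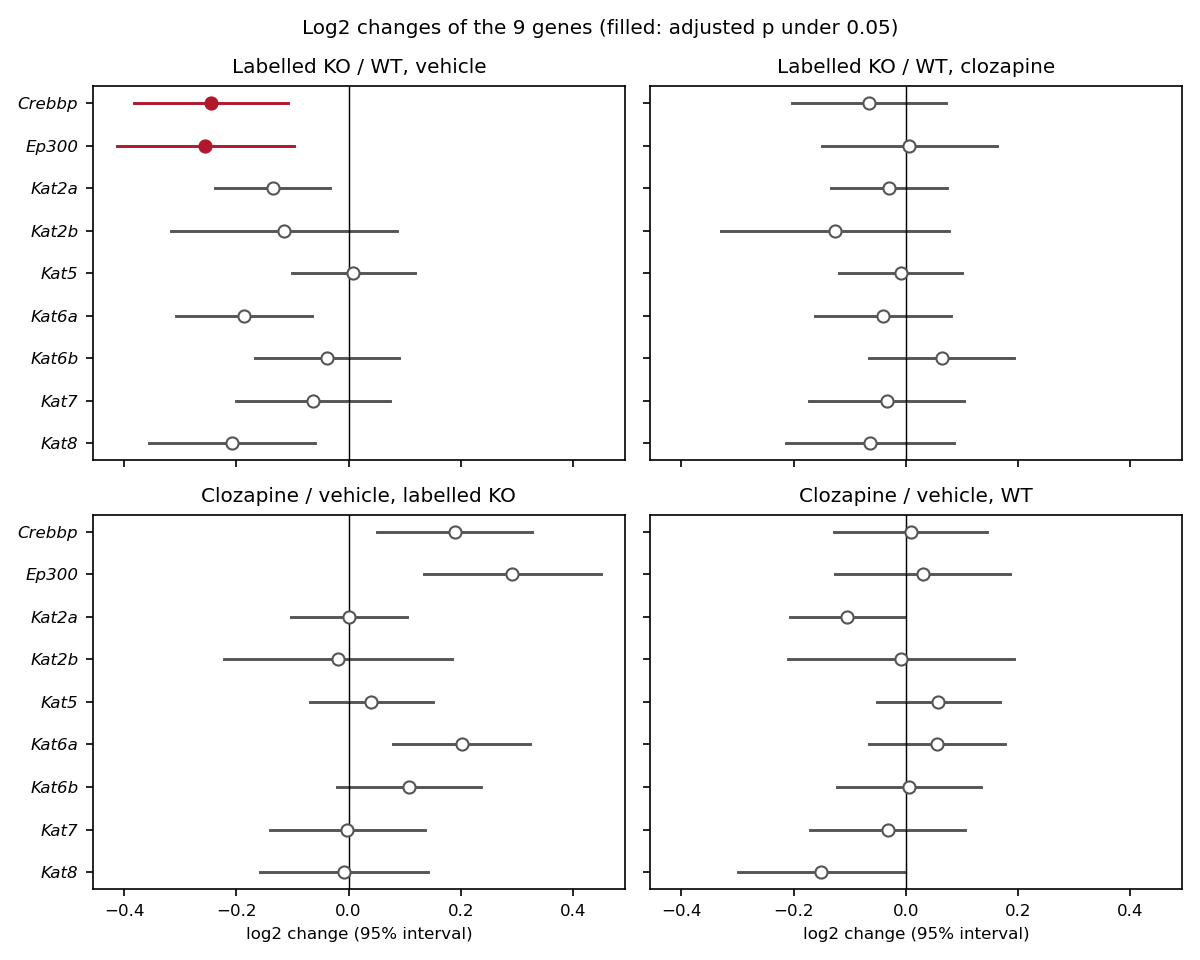
Log2 changes of the 9 genes with 95% intervals in 4 comparisons, from edgeR (filled points, adjusted p under 0.05). Filled points appear for Crebbp (-0.25) and Ep300 (-0.26) in the labelled knockout against wild type under vehicle, and all intervals in the comparison of genotypes under clozapine include 0.

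Whether clozapine acted differently in the 2 genotypes was tested as an interaction, the log2 change in the labelled knockout less the one in wild type. By edgeR 0 of 9 genes were called, where 0.654% of all genes were, and DESeq2 and limma-voom called 0. The only unadjusted p under 0.05 with a higher value belonged to Ep300 (7.72% of all genes), with an interaction of 0.26 (SE 0.105, 95% interval 0.04 to 0.48, edgeR adjusted p = 0.283). Crebbp had 0.18 (95% interval -0.01 to 0.37, edgeR adjusted p = 0.414) and Kat6a 0.15 (-0.03 to 0.32, edgeR adjusted p = 0.462). The difference between genotypes in the response of the p300/CBP pair therefore did not pass the adjusted threshold, and without knockout vehicle 5 the value was 0.17 for Ep300 (edgeR adjusted p = 0.508), 0.11 for Crebbp (edgeR adjusted p = 0.689) and 0.11 for Kat6a (edgeR adjusted p = 0.680). After correction for length and GC content it was 0.14 for Ep300 and 0.06 for Crebbp. Of the layer markers, 1 of 6 upper-layer markers was called higher in the interaction and 1 of 7 deep-layer markers lower, and their part was not tested.

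Averaged over genotypes, clozapine gave 0 called genes by edgeR, where 0.15% of all genes were called, and 0 by DESeq2 and limma-voom. An unadjusted p under 0.05 with a higher value was found for 3 of 9 (5.77% of all genes), Ep300 (log2 change 0.16, edgeR adjusted p = 0.244), Kat6a (0.13, edgeR adjusted p = 0.229) and Crebbp (0.10, edgeR adjusted p = 0.436). Without knockout vehicle 5 these were 0.11 for Ep300 (edgeR adjusted p = 0.369), 0.11 for Kat6a (edgeR adjusted p = 0.368) and 0.06 for Crebbp (edgeR adjusted p = 0.674).

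Averaged over treatments, the labelled knockout had lower Crebbp, with a log2 change of -0.16 (SE 0.046, 95% interval -0.25 to -0.06, edgeR adjusted p = 0.0399), which is a fall of 10.2% over 6 libraries against 6. That made 1 of 9 genes called lower, where 5.01% of all genes were called lower and 10.5% in either direction. The libraries overlapped, at 43.8 to 58.1 CPM in the labelled knockout and 54.6 to 61.5 CPM in wild type. An unadjusted p under 0.05 with a lower value was found for 5 of 9 genes (13.1% of all genes). These were Crebbp, Ep300 (-0.12), Kat2a (-0.08), Kat6a (-0.11) and Kat8 (-0.14). The call for Crebbp held in 4 of 12 fits that left out a library, and without knockout vehicle 5 the change was -0.12 (edgeR adjusted p = 0.0807). For Ep300 it was then -0.08 (edgeR adjusted p = 0.291) and for Kat6a -0.10 (edgeR adjusted p = 0.173), while without knockout vehicle 4 Ep300 was called (-0.17, edgeR adjusted p = 0.0406). The Crebbp call was also lost without knockout clozapine 3 or 4, wild-type clozapine 2 or 3, or wild-type vehicle 1, 3 or 4. With the correction for length and GC content 3 genes were called, Crebbp (-0.13, edgeR adjusted p = 0.0413), Kat2a (-0.12, edgeR adjusted p = 0.0170) and Kat8 (-0.17, edgeR adjusted p = 0.0425). Markers called higher in this comparison were 2 of 7 for microglia (summed level 309 to 371 CPM in the labelled knockout and 306 to 346 CPM in wild type) and 2 of 5 for oligodendrocyte precursors (199 to 224 CPM in the labelled knockout and 182 to 212 CPM in wild type). Those called lower were 2 of 6 for endothelial cells (184 to 194 CPM in the labelled knockout and 184 to 224 CPM in wild type) and 1 of 6 for mural cells (183 to 208 CPM in the labelled knockout and 187 to 229 CPM in wild type). Their part in the acetyltransferase values was not tested.

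Partners of the enzymes were looked at in 8 hand-written lists of 117 genes, of which 116 were tested. Under vehicle 3 were called higher and 6 lower in the labelled knockout, 7.76% of those tested against 9.16% of all genes, with a median log2 change of -0.05. The partners of CBP and p300 had 3 of 12 called lower and a median of -0.14. Maml3, a Notch coactivator that recruits p300, stood at 11.7 ± 0.64 CPM in knockout vehicle and 23.1 ± 1.22 CPM in wild-type vehicle (SD, n = 3 each; log2 change -0.98, edgeR adjusted p = 0.0051). Crtc1, a CREB coactivator, stood at 194 ± 11.0 CPM in knockout vehicle and 233 ± 10.7 CPM in wild-type vehicle (log2 change -0.27, edgeR adjusted p = 0.0056). Crem, a CREB-family factor, stood at 14.99 ± 0.59 CPM in knockout vehicle and 23.3 ± 3.24 CPM in wild-type vehicle (log2 change -0.63, edgeR adjusted p = 0.0083). These 3 calls held in each of the 12 fits that left out a library. Of 11 other settings of the test, 11 called Maml3, 9 Crtc1 and 9 Crem.

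Among other nuclear acetyltransferases 1 of 15 was called under vehicle. Clock, the circadian factor with reported acetyltransferase activity, stood at 69.1 ± 1.58 CPM in knockout vehicle and 86.7 ± 2.28 CPM in wild-type vehicle (log2 change -0.33, edgeR adjusted p = 0.0058). The median of that list was -0.09. The subunits of the SAGA and ATAC complexes, which hold Kat2a or Kat2b, had 2 of 20 called higher and a median of -0.03. They were Eny2 (0.22, edgeR adjusted p = 0.0319) and Usp22 (0.19, edgeR adjusted p = 0.0421), both of the deubiquitinating module of SAGA. The subunits of the MSL and NSL complexes, which hold Kat8, had 1 of 11 called lower, Hcfc1 (-0.31, edgeR adjusted p = 0.0203), and a median of -0.04. The subunits of the MOZ/MORF and HBO1 complexes, which hold Kat6a, Kat6b or Kat7, had a median of -0.03, with 0 of 9 called by edgeR, DESeq2 and limma-voom and 2 at an unadjusted p under 0.05. The subunits of the NuA4/TIP60 complex, which holds Kat5, had a median of 0.01. Of these 17, edgeR and limma-voom called 0 and DESeq2 called 1, and 3 had an unadjusted p under 0.05. The shares of all genes at an unadjusted p in either direction, or called by DESeq2, are not given here for this comparison. The lists of acetyl-CoA supply (9 genes, median 0.00) and of acetyl-lysine readers (23 genes, median -0.07) each had 1 gene called, Slc25a1, the mitochondrial citrate carrier (0.20, edgeR adjusted p = 0.0335), and Brd7, a bromodomain protein (-0.17, edgeR adjusted p = 0.0369). Leaving out single libraries, Hcfc1 kept its call in 9 of 12 fits, Eny2 in 7, Usp22 in 6, Slc25a1 in 6 and Brd7 in 4. After correction for length and GC content the Slc25a1 call was lost (0.13, edgeR adjusted p = 0.152). Of 11 other settings, 11 called Hcfc1, 9 Clock, 7 Eny2, 7 Usp22, 6 Brd7 and 5 Slc25a1.

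Averaged over treatments, 2 of the 116 partners were called higher in the labelled knockout and 5 lower, 6.03% against 10.5% of all genes. Clock (-0.26), Crem (-0.45) and Usp22 (0.16) were called in 12 of 12 fits without 1 library, Creb1, the factor that gives CBP its name, in 10 of 12 (-0.16), Jade3, a subunit of HBO1 complexes, in 6 (0.25), Crtc1 in 4 (-0.14) and Epc2, a subunit of the NuA4 complex, in 3 (-0.14). Creb1 stood at 42.5 to 47.0 CPM in knockout clozapine, 42.5 to 44.6 CPM in knockout vehicle, 47.7 to 51.5 CPM in wild-type clozapine and 47.7 to 50.2 CPM in wild-type vehicle. Its libraries thus did not overlap between the genotypes, but after correction for length and GC content its change was -0.10 and the call was lost (edgeR adjusted p = 0.0820). For clozapine in wild type 1 of 116 was called, Maml3 (-0.91, edgeR adjusted p = 0.0346), in 5 of 12 fits without 1 library. It stood at 9.15 to 15.5 CPM in wild-type clozapine and 21.9 to 24.3 CPM in wild-type vehicle. In the other 4 comparisons edgeR called 0 of 116. With clozapine in the labelled knockout 25 partners had an unadjusted p under 0.05 (12.2% of all genes did), and DESeq2 called 3 and limma-voom 0. For genotype under clozapine 17 did (15.9% of all genes), with 2 called by DESeq2 and 0 by limma-voom. For the interaction 17 did (13.6% of all genes), with 2 called by DESeq2 and 1 by limma-voom, and with clozapine averaged over genotypes 19 did (11.2% of all genes), with 1 called by DESeq2 and 0 by limma-voom. The shares of all genes called by DESeq2 and limma-voom are not given here.

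The genes whose profile was most like that of each enzyme were taken from 14976 tested genes with a mean of at least 1 CPM, by Pearson's r of log2 CPM over the 12 libraries. These libraries share groups and the length trend described above, and the correlations are a description. Ep300 was most like Bptf (r = 0.979), a subunit of a chromatin remodelling complex, Spen (0.979), a transcriptional corepressor, and Ppp1r9a (0.972), an actin-binding synaptic protein, all with 14.1 to 14.5 kb of exons. Crebbp was most like Adam22 (r = 0.984, 14.3 kb), a synaptic membrane protein, Ccdc186 (0.972, 6.90 kb) and Ralgapb (0.961, 13 kb). Kat6a was most like Kmt2c (r = 0.966), Ank3 (0.964) and Macf1 (0.957), with 20.3 to 34.8 kb. The median length of all tested genes was 4.0 kb, so the nearest profiles of these 3 enzymes belonged to genes above it. The same held for Kat6b, most like Snrnp200 (0.926, 7.82 kb), Hspa12a (0.903, 9.19 kb) and AU040320 (0.898, 6.26 kb). Lengths for the other enzymes lay on both sides of the median. Kat2a was most like Hyou1 (0.933, 7.23 kb), Tmem121b (0.918, 4.87 kb) and Plpp5 (0.917, 3.53 kb). Kat8 was most like Ier5 (0.924, 3.28 kb), Lonp2 (0.921, 5.35 kb) and Ncbp1 (0.919, 3.39 kb). Kat2b was most like Glrb (0.913, 4.66 kb), Myo6 (0.889, 12.1 kb) and Gm2830 (0.883, 0.385 kb). Kat5 was most like Ssc4d (0.889, 2.98 kb), Sp9 (0.866, 5.04 kb) and Dtx4 (0.864, 5.23 kb). Kat7 was most like Atp6v0a1 (0.890, 6.56 kb), Sf3b4 (0.859, 2.16 kb) and Gfm1 (0.846, 4.42 kb).

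The 9 genes also differed in how much replicates of 1 group varied. The pooled coefficient of variation within groups was lowest for Kat5 (3.02%) and Kat2a (3.06%) and highest for Kat2b (9.10%) and Ep300 (7.32%). Over all 12 libraries the highest CPM of Ep300 was 1.5 times the lowest, the widest range of the 9, and that of Kat5 was 1.10 times the lowest, the narrowest. Kat2b, with 5392 counts in all, and Kat8, with 5308, rested on the fewest reads. Ep300, with 19717 counts, varied more within groups than Kat8 did, at 7.32% against 4.49%. Its coefficient was 12.3% in knockout vehicle and 1.94% to 6.34% in the other groups.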

How the data were processed

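The submitters' processing notes name STAR 2.5.1b, featureCounts and the build GRCm38. The authors deposited 1 table of values per gene and library, read here as estimated counts because 7.39% of them are not whole. How shared reads and strand were handled is not given in the sources used here. Values were rounded to whole numbers, since whole counts had been assumed in the design. Identifiers were matched to GENCODE M21 of GRCm38 (46574 of 47069 named), which also gave merged exon lengths and, from the longest transcript, GC content.

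The 4 groups entered 1 fit with edgeR 4.0.16 in R 4.3.3 (filterByExpr, TMM, robust quasi-likelihood, BH adjustment over 17286 genes holding 99.9% of counts), with a threshold of 0.05 and 95% intervals. Total counts lay between 23408372 and 28069638. The 7 contrasts are clozapine in each genotype, genotype under each treatment, both averaged effects and the interaction. CPM are counts scaled to TMM-adjusted library sizes. The test of genotype under vehicle was also run on simulated counts with no length trend. The changes planted there were larger than those of Crebbp and Ep300, so that check does not bear on the calls of these genes.

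The 9 genes, the 8 partner lists and the 14 marker lists were chosen with earlier results of these data known. All 9 genes were tested in every comparison, and Hdac2 is given once. All 9 are named for genotype under vehicle and for clozapine in the labelled knockout. In the other comparisons only some of the 9 are named, with the results known. Of each partner list up to 4 called genes by smallest p are named, and for each of the 9 genes the 3 of highest correlation. Alternatives were DESeq2 1.42.0, limma-voom (limma 3.58.1), RLE size factors, a filter of only 1 count in all, a filter on mean CPM (1 or more), a replicate block, a correction for length and GC content (mgcv 1.9.3), both together, 1 surrogate variable (sva 3.50.0), unrounded values, fits of only the compared groups, leaving out each library, and, for levels, the longest coding transcript as length. Replicate numbers were not used to pair libraries.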

Additional observations from a re-analysis of the deposited data

How the results depend on the processing

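Of the 9 genes, the number called in the labelled knockout against wild type under vehicle was 2 in the reported test, 0 with a replicate block, 0 with the replicate block and the correction for length and GC content, 1 with 1 surrogate variable and 0 with only the groups compared, where 5 kept an unadjusted p under 0.05. For clozapine in the labelled knockout it was 0, against 1 with DESeq2 and 1 with no low-count filter. For the genotype effect averaged over treatments it was 1, against 0 with the replicate block, 0 with the block and the correction, and 3 with the correction alone. Leaving out each library in turn gave 0 to 3 under vehicle, 0 to 2 averaged over treatments and 0 to 0 in the other 5 comparisons. The summed level of the 9 genes was 79.2 CPM per kilobase, and 110.4 with the longest coding transcript as length, an alternative chosen after seeing the data. Of 63 gene results, 24 changed sign in some alternative, among them 0 of the 3 called ones. Of the 116 partners DESeq2 called 12 averaged over treatments, against 7 by edgeR, and 2 for clozapine in wild type, against 1. The share of all genes called by DESeq2 is not given here, so these counts do not set partners apart from other genes. Libraries of different groups share only a replicate number: over 10 same-numbered pairs of libraries the correlation of deviations from group means was -0.0803 to 0.123, over 0.1 in 1 pair, and over 44 other pairs -0.208 to 0.150. The cause of these changes was not tested. With 3 libraries a group, changes smaller than the 95% intervals cannot be told from none.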
